A study of Mus musculus with 11 samples.

Results

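The genes described here act at the hepatic lipid droplet or drive its enlargement in fatty liver. The set was fixed by name and comprises 10 genes, namely the droplet coat proteins *Plin2*, *Plin3*, *Plin4* and *Plin5*, the droplet fusion proteins *Cideb* and *Cidec*, the lipase *Pnpla2* and its inhibitor *Hilpda*, the transcription factor *Pparg* and the acyltransferase *Mogat1*. Of these, 6 have a row in the count table of 13669 genes and all 6 were among the 13334 genes tested. *Plin4*, *Cideb*, *Cidec* and *Mogat1* were not analysed here, so droplet fusion and the *Mogat1* route of triglyceride synthesis are outside the values below. The rule for the members is a list of names and uses no measured value, though the list was drawn up with earlier results of these data known.

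The question was how genes of hepatic lipid storage behave in livers whose hepatocytes repress the *miR-379/miR-410* cluster. RNA was taken from the livers of 11 wild-type male C57BL/6J mice on regular chow, 5 in the AAV-NC group and 6 in the AAV-TuD group. Mice were 6 weeks of age on arrival and were acclimated for 4 weeks. All animals carried a recombinant adeno-associated virus (rAAV) of serotype 8 given by tail vein, with the liver-specific LP1 promoter. In AAV-TuD mice it expressed a tough decoy (TuD), a hairpin RNA that captures *miR-379* and *miR-541*, and in AAV-NC mice a negative control sequence. The study's methods give a fast of 5 to 6 h and killing from 4 weeks to 3 months after the virus for TuD experiments in general, and the time for these 11 animals is not given in the sources used here. Each library stands for the whole liver of a mouse, so changes in hepatocytes cannot be separated from changes in other cells.

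Triglyceride that a hepatocyte does not burn or secrete is stored in lipid droplets, which bud from the endoplasmic reticulum and are coated by perilipins. *Plin2* is the main perilipin of the hepatocyte droplet, *Plin3* is soluble and moves onto nascent droplets, and *Plin5* is found in oxidative tissues, where it links droplets with mitochondria. *Pnpla2* encodes adipose triglyceride lipase, which starts the breakdown of stored triglyceride, and *Hilpda* encodes a small droplet protein, induced by hypoxia and fatty acids, that inhibits this lipase. *Pparg* encodes PPARγ, the nuclear receptor that drives fat storage in adipocytes, which is scarce in lean liver and rises in fatty liver.

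The decoy binds 2 miRNAs, and their mature sequences from RefSeq (GRCm38.p6, chromosome 12) are shown because a miRNA recognises its direct targets mainly through the seed, bases 2 to 8, given in capitals.
miR-379-5p: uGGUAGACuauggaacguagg
miR-541-5p: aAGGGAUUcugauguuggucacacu
The longest annotated 3′ UTR of each of the 10 genes, from 75 bases in *Mogat1* to 2256 bases in *Plin3*, was searched for the complement of each seed. The letters GTCTACC for *miR-379-5p* were in none of the 10, whereas 5.72% of 10935 tested genes with an annotated 3′ UTR held them. The letters AATCCCT for *miR-541-5p* were also in none of the 10, against 9.51% of the tested genes. Most of these 3′ UTRs are short, and among tested genes with a 3′ UTR within 20% of the length of that of *Pparg* (204 bases) only 0.794% and 1.32% held the letters of *miR-379-5p* and *miR-541-5p*. The search says that these letters are not in these sequences and nothing about other miRNAs of the cluster or other modes of pairing.

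The genes were compared in the AAV-TuD and AAV-NC livers with the quasi-likelihood test of edgeR, at an adjusted p value under 0.05 after Benjamini-Hochberg adjustment over all genes tested. Values are CPM, the reads of a gene relative to the total of its library, scaled with TMM factors, which correct for unequal composition of the libraries. The kit reads only the 3′ end of each transcript, so a long transcript yields no more reads than a short one and CPM levels can be set side by side between genes. Expression of *Pparg* and *Plin3* was higher with AAV-TuD, by 2.54-fold and 1.27-fold, and that of *Plin2*, *Plin5*, *Pnpla2* and *Hilpda* did not pass the test. Thus 2 of 6 members were called, both higher, where 11.6% of all genes tested were called, 7.24% higher and 4.33% lower. *Pparg* met the read filter (more than 10 reads in 5 or more livers) only through the AAV-TuD livers, where it was high. Its call is therefore not independent of the filter, and the count of 2 is given as a description. The values of the groups did not separate completely for any of the 6 members, whereas 7.39% of all genes tested showed no overlap between groups. The median log2 fold change was 0.25 over the 6 members and -0.00 over all genes tested.

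Libraries held between 8148531 and 12043959 reads. The share of reads from major urinary protein (*Mup*) genes was uneven, with 40.2% in AAV-NC liver 7, 32.3% in AAV-TuD liver 3, 29.6% in AAV-TuD liver 5 and between 8.58% and 19.5% in the others. TMM factors ranged from 0.667 to 1.24, and scaling by library size only moved the median log2 fold change over all genes to 0.23, against which fold changes under that scaling are read. All 10 hepatocyte markers were tested, and their summed level was 39379 to 45483 CPM with AAV-NC and 47537 to 54239 CPM with AAV-TuD, without overlap. *Alb* supplied more of this sum than any other marker, with 21096 ± 2304 CPM (SD, n = 5) and 28044 ± 2727 CPM (SD, n = 6). The markers did not rise as a group, since the median log2 fold change over the 10 was -0.11 and only 4 were above 0.

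**Figure D1:**
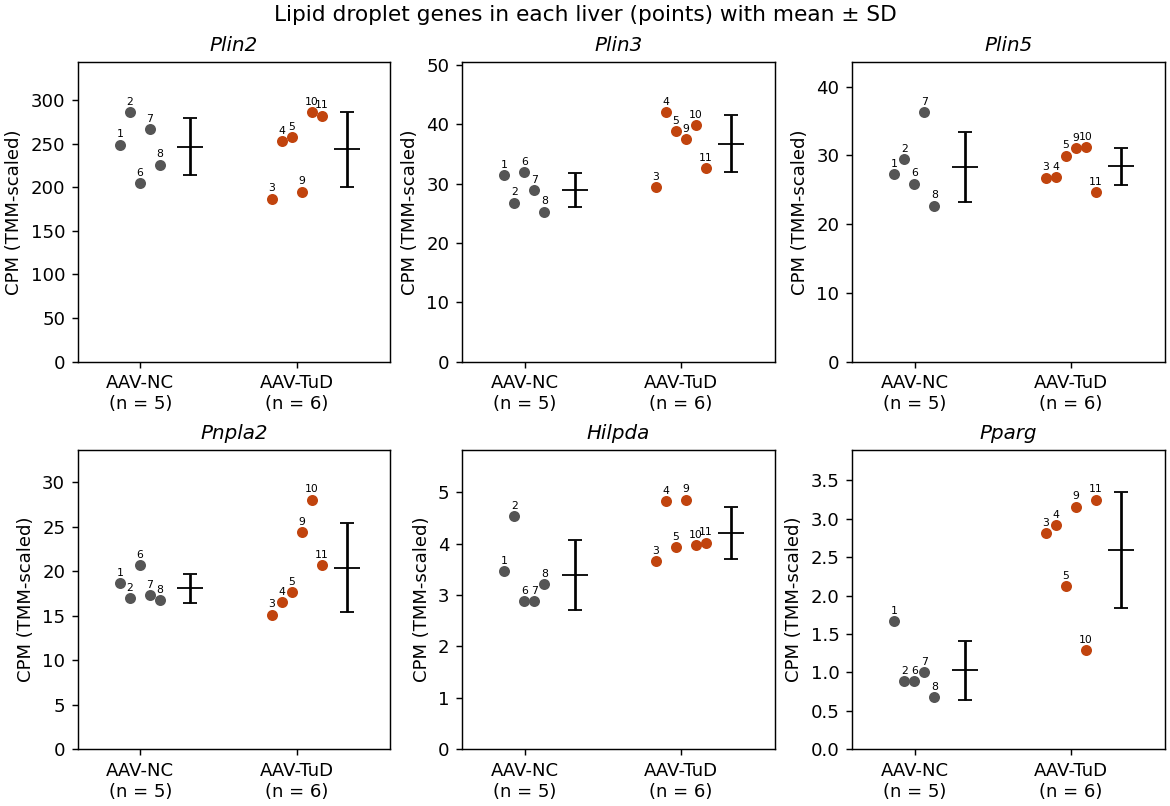
Expression of the 6 lipid droplet genes in each liver, in TMM-scaled CPM on linear axes that start at 0. Grey points are the 5 AAV-NC livers and orange points the 6 AAV-TuD livers, numbered by liver, with the mean and SD in black. For *Pparg* and *Plin3*, 5 of 6 AAV-TuD livers lie above all AAV-NC livers, and the other genes overlap more widely.

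Levels spanned a wide range. In the AAV-NC livers *Plin2* was the most abundant member and ranked 358 among the 13334 genes tested, followed by *Plin3* (3004), *Plin5* (3050), *Pnpla2* (4203), *Hilpda* (9433) and *Pparg* (12810). The levels of *Plin3* and *Plin5* lay within each other's spread, and the remaining neighbours in this order had no overlapping AAV-NC values. *Pparg* was close to the lower limit of what these libraries resolve, with 7 to 39 reads per liver, so its fold change carries a larger counting error than that of the other members.

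*Plin2* (ENSMUSG00000028494, chromosome 4 from 86648386 to 86670060 of GRCm38, minus strand) encodes the major coat protein. Its RNA stood at 249, 286, 205, 267 and 226 CPM in AAV-NC livers 1, 2, 6, 7 and 8. In the AAV-TuD livers it ranged from 187 in liver 3 to 286 in liver 10, with a median of 255. The groups overlapped, with 3 of 6 AAV-TuD livers inside the range of the AAV-NC livers, 2 below it (187 in liver 3 and 195 in liver 9) and 1 above it by less than 1 CPM. Mean levels were 247 ± 32.3 (SD, n = 5) and 244 ± 42.8 (SD, n = 6). The log2 fold change was -0.02 with a 95% interval from -0.27 to 0.24 (adjusted p = 0.944 from edgeR). In terms of fold this interval runs from 0.827 to 1.18, from between 1852 and 3322 reads per liver. These are levels of RNA, and neither PLIN2 protein nor droplet content was measured here. The study reported more lipid in cultured hepatocytes with the decoy, where PLIN2 staining was also quantified, and normal liver triglyceride in chow-fed mice. It also reported more liver steatosis with the decoy in mice on a high-fat, high-sucrose diet, a diet that the animals described here did not receive.

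*Plin3* (ENSMUSG00000024197, chromosome 17 from 56277476 to 56292873, minus strand), the soluble perilipin, had 31.5, 26.8, 32, 28.9 and 25.3 CPM in AAV-NC livers 1, 2, 6, 7 and 8. The lowest AAV-TuD value was 29.4 in liver 3, the median 38.2 and the highest 42.1 in liver 4. All AAV-TuD livers but number 3 were above every AAV-NC liver. Mean levels were 28.9 ± 2.90 (SD, n = 5) and 36.7 ± 4.78 (SD, n = 6), and the estimated log2 fold change was 0.35 (standard error 0.10, 95% interval from 0.13 to 0.56, adjusted p = 0.0361 from edgeR). The difference was small and close to the threshold. It was called in all 9 fits with another tool, scaling, filter or the livers of high *Mup* share removed, with log2 fold changes from 0.34 to 0.59, but in only 4 of the 11 fits that left out a liver. The call was lost without AAV-NC liver 2, 7 or 8 and without AAV-TuD liver 4, 5, 9 or 10, with adjusted p values up to 0.0855, while the log2 fold change stayed between 0.30 and 0.40. A transcript of *Gm9445*, which has no row in the table, matches 399 of the last 400 bases of *Plin3* at 84.7% identity, and one of *Gm12551*, also without a row, matches 387 of those of *Plin2* at 89.9%. How reads that match several genes were counted is not given in the sources used here.

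*Plin5* (ENSMUSG00000011305, chromosome 17 from 56111601 to 56117596, minus strand), the perilipin of oxidative tissues, had 27.2, 29.5, 25.9, 36.3 and 22.7 CPM in the same AAV-NC livers. With AAV-TuD it ranged from 24.6 to 31.2 with a median of 28.4. All 6 AAV-TuD livers fell inside the range of the AAV-NC livers. Mean levels were 28.3 ± 5.10 (SD, n = 5) and 28.4 ± 2.70 (SD, n = 6), and the log2 fold change was 0.01 with a 95% interval from -0.23 to 0.24 (adjusted p = 0.975 from edgeR). *Plin4*, which lies beside *Plin5* on the same strand (chromosome 17 from 56100591 to 56109803), was not analysed here.

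Within the coat, *Plin2* supplied most perilipin transcripts in every liver. Of the reads of the 3 measured perilipins, *Plin2* had 81.1% ± 2.14 (SD, n = 5) in AAV-NC and 78.6% ± 3.06 (SD, n = 6) in AAV-TuD livers. The share of *Plin3* was 9.63% ± 1.67 and 12% ± 1.59, and that of *Plin5* 9.30% ± 1.08 and 9.38% ± 1.69. Ratios within a liver do not depend on how libraries are scaled. The log2 ratio of *Plin2* to *Plin3* reads was 3.09 ± 0.28 (SD, n = 5) in the AAV-NC and 2.72 ± 0.25 (SD, n = 6) in the AAV-TuD livers. The difference was -0.37 (two-sided exact permutation test over all splits of the livers, p = 0.0433, 0.130 after Benjamini-Hochberg adjustment over the 3 ratios computed), and it did not pass after adjustment. In 3 of 6 AAV-TuD livers this ratio was below all AAV-NC livers. The log2 ratio of *Plin2* to *Plin5* differed by -0.05 (exact permutation p = 0.788, the same after adjustment).

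**Figure D2:**
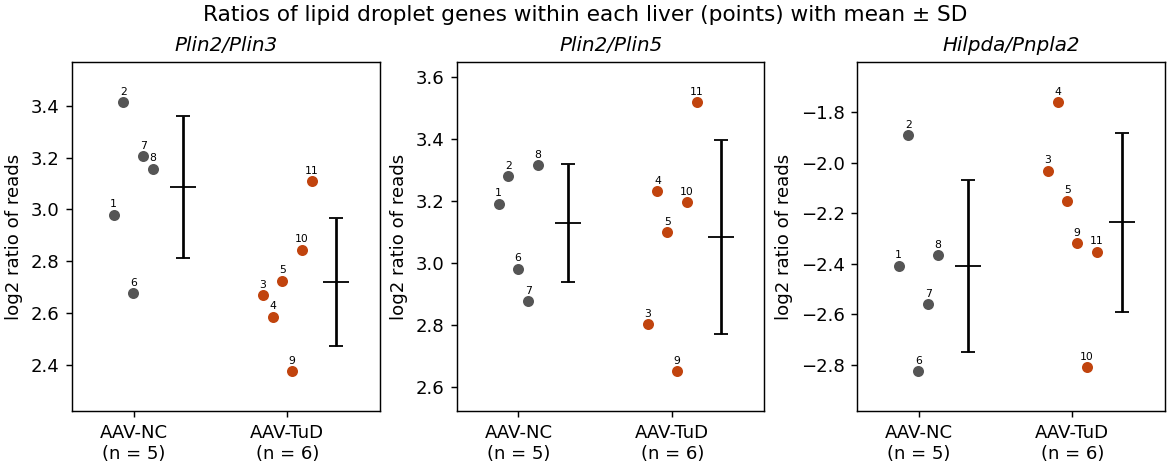
Log2 ratios of read counts, each plus 0.5, within each liver for *Plin2* over *Plin3*, *Plin2* over *Plin5* and *Hilpda* over *Pnpla2*. Points are livers, numbered, and black bars give the mean and SD of 5 AAV-NC and 6 AAV-TuD livers. *Plin2* over *Plin3* is lower with AAV-TuD by 0.37 on the log2 scale, and all 3 ratios overlap between groups.

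*Pnpla2* (ENSMUSG00000025509, chromosome 7 from 141455198 to 141460743, plus strand), the triglyceride lipase, had 18.6, 17.0, 20.7, 17.3 and 16.7 CPM in AAV-NC livers 1, 2, 6, 7 and 8. The AAV-TuD values ran from 15.1 in liver 3 to 28 in liver 10, with a median of 19.2. They were more scattered than the AAV-NC values, with 2 AAV-TuD livers above and 2 below all AAV-NC livers and a coefficient of variation of 24.5% against 9.08%. Mean levels were 18.1 ± 1.64 (SD, n = 5) and 20.4 ± 5.0 (SD, n = 6), and the log2 fold change was 0.18 with a 95% interval from -0.13 to 0.49 (adjusted p = 0.480 from edgeR). The difference in spread between the groups was not tested.

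*Hilpda* (ENSMUSG00000043421, chromosome 6 from 29272488 to 29275446, plus strand), the inhibitor of that lipase, had 3.46, 4.53, 2.88, 2.88 and 3.21 CPM in AAV-NC livers 1, 2, 6, 7 and 8. In the AAV-TuD livers the lowest value was 3.66, the median 3.99 and the highest 4.86. AAV-NC liver 2 was high and reached into the range of the AAV-TuD livers, and 2 AAV-TuD livers exceeded it. The means were 3.39 ± 0.68 (SD, n = 5) and 4.21 ± 0.51 (SD, n = 6). The log2 fold change of 0.32 did not pass the test, with a 95% interval from -0.03 to 0.67 (edgeR adjusted p = 0.236). With 23 to 60 reads per liver, an increase of up to 1.59-fold lies within that interval. The log2 ratio of *Hilpda* to *Pnpla2* within a liver was -2.41 ± 0.34 (SD, n = 5) and -2.24 ± 0.35 (SD, n = 6), a difference of 0.17 (exact permutation p = 0.420, adjusted 0.630).

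*Pparg* (ENSMUSG00000000440, chromosome 6 from 115360951 to 115490399, plus strand) had 1.67, 0.881, 0.885, 1.0 and 0.681 CPM in AAV-NC livers 1, 2, 6, 7 and 8. These values stand on 14, 7, 8, 8 and 7 reads. Only AAV-NC liver 1 exceeded 10 reads, so the gene was tested because of its counts in the AAV-TuD livers. With AAV-TuD it had 1.29 CPM in liver 10, the lowest, a median of 2.87 and 3.25 in liver 11, the highest, from 15 to 39 reads. Only AAV-TuD liver 10 overlapped the AAV-NC group, where it lay below liver 1, and the other 5 AAV-TuD livers were above all AAV-NC livers. Mean levels were 1.02 ± 0.38 (SD, n = 5) and 2.59 ± 0.75 (SD, n = 6). This was a log2 fold change of 1.35 (SE 0.29, edgeR adjusted p = 0.00883), or a 2.54-fold increase with a 95% interval from 1.65-fold to 3.93-fold. It was called in all 11 fits that left out a liver, with log2 fold changes from 1.22 to 1.59, and in all 9 fits with another tool, scaling, filter or the livers of high *Mup* share removed. An antisense gene, *Gm44079*, overlaps *Pparg* by 13176 bases and has no row in the table. The strand setting of the counting is not given in the sources used here, so reads of that gene cannot be told apart from those of *Pparg*.

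**Figure D3:**
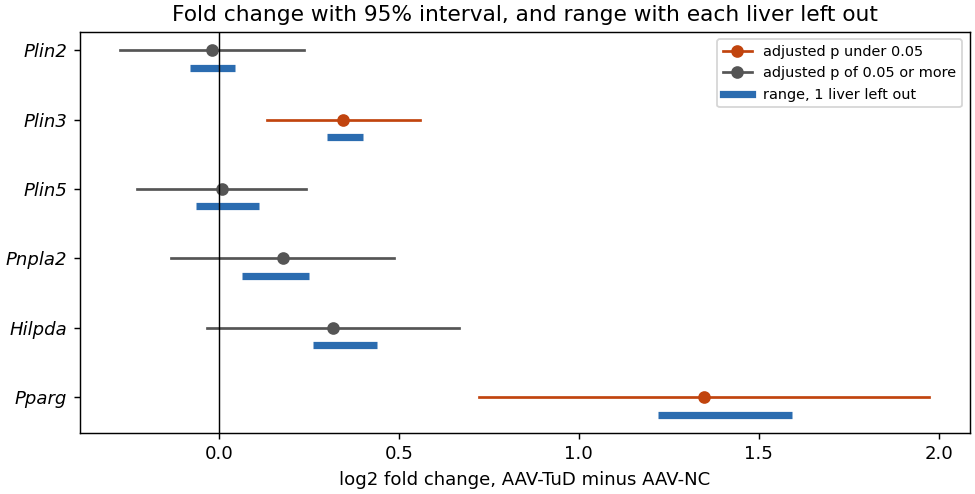
Log2 fold change of each gene between AAV-TuD and AAV-NC livers (points) with 95% intervals from edgeR (thin lines) and the range over the 11 fits that left out a liver (blue bars). The intervals of *Plin3* (from 0.13) and *Pparg* (from 0.72) lie above 0, and those of the other 4 genes include 0.

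*Pparg* is transcribed from several start sites, and reads from the 3′ end cannot say which was used. A pair of its RefSeq windows (GRCm38.p6, from 250 bases before to 50 bases after the start) and that of *Plin2*, itself a known target of PPAR receptors, are shown to set the member that rose most beside the abundant coat gene that did not pass the test. Capitals mark AGGTCA, the core letters that nuclear receptors of the PPAR type recognise, on either strand.
Pparg, first start, chr6:115360894-115361193, plus strand: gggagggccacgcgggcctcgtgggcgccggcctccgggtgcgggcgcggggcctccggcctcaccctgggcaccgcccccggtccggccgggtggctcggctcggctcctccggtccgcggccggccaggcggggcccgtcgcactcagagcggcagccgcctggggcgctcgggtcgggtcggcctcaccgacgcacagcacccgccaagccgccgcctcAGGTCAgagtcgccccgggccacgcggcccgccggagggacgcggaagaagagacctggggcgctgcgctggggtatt
Pparg, most downstream start, chr6:115421816-115422115, plus strand: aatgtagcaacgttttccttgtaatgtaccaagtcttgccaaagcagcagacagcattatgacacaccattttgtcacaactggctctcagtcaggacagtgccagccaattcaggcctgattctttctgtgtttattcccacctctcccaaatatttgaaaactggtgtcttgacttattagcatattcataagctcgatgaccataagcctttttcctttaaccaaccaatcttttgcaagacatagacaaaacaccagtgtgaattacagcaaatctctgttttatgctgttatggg
Plin2, chr4:86670010-86670309, minus strand: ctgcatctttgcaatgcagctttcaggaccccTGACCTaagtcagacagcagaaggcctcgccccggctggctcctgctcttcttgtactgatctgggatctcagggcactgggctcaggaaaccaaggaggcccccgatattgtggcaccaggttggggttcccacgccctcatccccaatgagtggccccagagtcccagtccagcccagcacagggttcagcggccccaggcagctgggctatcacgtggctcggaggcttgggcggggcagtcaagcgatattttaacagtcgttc
The first *Pparg* window is 80.3% G and C and the downstream window 40.3%, where the median of 32851 promoter windows of the same length was 52.7%. AGGTCA begins 28 bases before the start in the first *Pparg* window and 9 bases before it in a second window, not shown (chr6:115362099-115362398), and is not in the downstream window, and in *Plin2* its reverse complement begins 218 bases before the start. These letters occur in 16.3% of all windows, and among the 10 genes in windows of *Plin2*, *Plin5* and *Pparg*. The full PPAR element, searched as a direct repeat of this core with a spacer base and any base in place of the T, was in 0.381% of all windows and in none of the 15 windows of the 10 genes. ACGTG, the core of the hypoxia response element, was in 19.6% of all windows and in those of *Plin2* and *Hilpda*. In *Plin2* it overlaps an E-box, CACGTG, that begins 4 bases before the start, and E-boxes were in 7.15% of all windows. A match is a description of the letters and not of a bound site.

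Other genes of lipid storage were taken from 7 lists, and 83 of their 101 genes were tested. With AAV-TuD 7 of these were higher and 7 lower, and the median log2 fold change was 0.00. Over all genes tested 7.24% were higher and 4.33% lower, against which the counts per list here and below are read. Among genes listed as PPARγ targets in fatty liver, 4 of 9 tested were higher and none lower, with a median of 0.47. These were *Lpl*, lipoprotein lipase (2.37), *Acot2*, a mitochondrial acyl-CoA thioesterase (1.86), *Cd36*, a fatty acid receptor (1.6), and *Ucp2*, a mitochondrial carrier (1.14 on the log2 scale). For *Lpl*, *Cd36* and *Acot2*, all 6 AAV-TuD livers were above all AAV-NC livers. The rest of this list was not called, *Fabp4* (0.47), *Vldlr* (0.02), *Gpd1* (-0.02), *Scd1* (-0.14) and *Angptl8* (-0.17), named after their values were seen. The list was chosen with earlier results of these data known, and the study had reported *Lpl*, *Cd36* and *Ucp2* as raised. Its count is therefore not an independent test. Of 16 genes that PPARα induces on fasting, 2 were higher, *Vnn1*, a pantetheinase (1.30), and *Pdk4*, a kinase that shuts off pyruvate oxidation (0.94), and none lower in edgeR, with a median of 0.03, while DESeq2 and limma-voom each called 3 higher. The call for *Pdk4* was lost in 9 of 11 fits that left out a liver. It was also lost without the 3 livers of the highest *Mup* share (edgeR adjusted p = 0.122). *Pdk4* had a mean of only 14 reads per liver, with 0.902 CPM in AAV-NC and 1.73 CPM in AAV-TuD livers. Its counts in the AAV-NC livers alone would not have met the read filter.

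In triglyceride synthesis, edgeR called 1 of 15 genes higher and 3 lower, and the median was 0.02, while DESeq2 called 1 higher and 4 lower. The 4 lower genes in DESeq2 were *Acsl4*, *Dgat2*, *Agpat2* and *Gpat4*, of which *Agpat2* and *Gpat4* were named after their values were seen. *Gpat3*, an acyltransferase of the first step, rose by 1.33 on the log2 scale from a level as low as that of *Pparg*, from 1.0 ± 0.35 (SD, n = 5) to 2.5 ± 0.97 CPM (SD, n = 6). Like *Pparg*, *Gpat3* met the read filter through the AAV-TuD livers, so its call is not independent of the filter. *Dgat2*, which catalyses the last step, fell by 0.40, *Acsl4*, an acyl-CoA synthetase, fell by 0.44 and *Lpin1*, a phosphatidate phosphatase, fell by 0.89 on the log2 scale. The *Lpin1* values of the groups overlapped, from 26.5 to 105 CPM with AAV-NC and from 30.9 to 64.3 with AAV-TuD, and its call was lost in 8 of 11 fits that left out a liver and in DESeq2 (adjusted p = 0.0642). Of 7 genes of droplet formation, *Tm6sf2*, which serves the lipidation of secreted lipoproteins, fell by 0.49 and none was higher. Of 16 other coat and fusion genes, *Ldah*, a droplet-associated hydrolase, fell by 0.30 and edgeR called none higher, and the *Ldah* call was lost in 8 of 11 fits that left out a liver. DESeq2 and limma-voom each called 1 gene of this list higher, *Aifm2* (named after its values were seen), which had a log2 fold change of 0.44 in edgeR (adjusted p = 0.0519), and 5 of 6 AAV-TuD livers exceeded every AAV-NC liver. Of 11 lipases and cofactors, *Aadac* fell by 0.29 and *Ces1f* by 0.46, both esterases of the endoplasmic reticulum, and none was higher. Under scaling by library size only, none of the 7 lower genes was called. Of 9 hypoxia targets none was called in edgeR and 2 had an unadjusted p under 0.05. DESeq2 and limma-voom each called 1 of them, *Vegfa*, lower, a gene named after its values were seen.

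**Figure D4:**
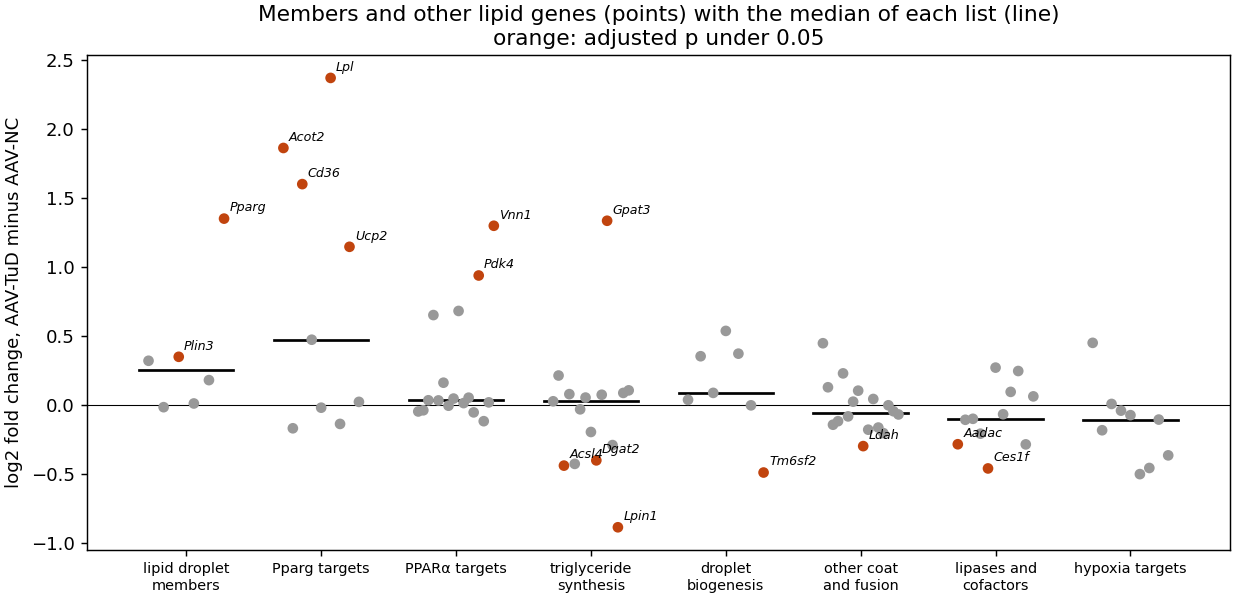
Log2 fold change of the 6 members and of the tested genes in 7 other lists (points), with the median of each list as a line. Orange points passed an adjusted p value of 0.05 and are named. *Pparg* (1.35) lies among the higher genes of the PPARγ target list, and the medians of the lists other than the members and PPARγ targets are near 0.

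Markers of other cells differed between the groups beside the rise of *Pparg* and *Plin3*. In RNA of whole liver a change in the number of cells of a type and a change in RNA per cell cannot be told apart. Of 12 stellate cell markers, 9 were higher and none lower, and their summed level was 239 to 310 CPM with AAV-NC and 410 to 541 with AAV-TuD. Of 10 Kupffer cell markers, 6 were higher and none lower, with sums of 113 to 169 and 126 to 341 CPM. Of 5 cholangiocyte markers tested of 8 listed, all 5 were higher, with sums of 85.7 to 122 and 151 to 189 CPM. Of 6 markers of lipid-laden macrophages tested of 8 listed, edgeR called 4 higher and none lower, with sums of 45.4 to 160 and 63.6 to 104 CPM, and *Trem2* and *Itgax* have no row. *Gpnmb* and *Mmp12*, among those called, had at most 0.292 and 0.239 CPM in AAV-NC livers. They met the read filter only through the AAV-TuD livers, as did the cholangiocyte marker *Epcam*, with at most 1.13 CPM in AAV-NC livers. Their calls are not independent of the filter, and these genes were named after their values were seen. *Fabp5* made up most of the AAV-NC sum, with 92.7 ± 43.4 CPM (SD, n = 5) against 43.5 ± 25.7 (SD, n = 6) in the AAV-TuD livers. For *Fabp5* the log2 fold change was -1.10 (adjusted p = 0.0686 in edgeR), limma-voom called it lower, and it was named after its values were seen. *Spp1* stands in both the cholangiocyte and the macrophage list. None of 9 endothelial markers passed edgeR's test, 0 had an unadjusted p under 0.05 and 0 were called by DESeq2 or limma-voom, with sums of 261 to 289 and 260 to 281 CPM. Of 10 hepatocyte markers, edgeR called 2 lower, *Apob* and *Hnf4a*, and none higher, whereas DESeq2 and limma-voom each also called *Alb* higher. In edgeR the log2 fold change of *Alb* was 0.41 (95% interval from 0.10 to 0.72, adjusted p = 0.0805), and its values did not overlap between the groups. *Apob*, *Hnf4a* and *Alb* were named after their values were seen.

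Adipocytes express *Pparg* strongly, and 3 of 9 adipocyte markers were tested, *Adrb3*, *Fabp4* and *Lipe*. In edgeR none of these was called and 2 had an unadjusted p under 0.05, while DESeq2 called 1, *Adrb3* (named after its values were seen), and limma-voom 0. *Fabp4* and *Lipe* are also in the PPARγ target and lipase lists. The sum of the 3 was 16.9 to 20.9 CPM with AAV-NC and 20.1 to 29.6 with AAV-TuD. The defining markers *Adipoq*, *Plin1*, *Cidea*, *Lep*, *Retn* and *Cfd* have no row in the table. The stellate cell sum was highest in AAV-TuD livers 10 and 9, 541 and 540 CPM, which had 1.29 and 3.16 CPM of *Pparg* and 39.8 and 37.6 CPM of *Plin3*. The Kupffer cell sum was highest in AAV-TuD liver 10, 341 CPM, and within that group lowest in liver 3, 126 CPM, which had 2.82 CPM of *Pparg* and 29.4 CPM of *Plin3*. The part of other cell types in the *Pparg* and *Plin3* results was not tested.

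The members did not vary as a block between animals. AAV-TuD liver 3 had the lowest value of its group for 4 of the 6 members, *Plin2*, *Plin3*, *Pnpla2* and *Hilpda*, and AAV-TuD liver 10 had the highest for 3, *Plin2*, *Plin5* and *Pnpla2*, but the lowest for *Pparg*. In the AAV-NC group liver 8 was lowest for 4 of 6, *Plin3*, *Plin5*, *Pnpla2* and *Pparg*. AAV-TuD liver 3 is also among the livers with a high *Mup* share. Without the 3 livers of the highest *Mup* share, an alternative added after the data were seen, *Pparg* and *Plin3* were still called.

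The genes whose pattern over the 11 livers was closest to that of *Pparg* were sought among 8208 genes in no list with a mean of at least 50 reads, by the Euclidean distance between log2 CPM values centred on the AAV-NC mean. They were *Gm10600* (distance 1.0), *Gm17167* (1.02), *Ttyh2* (1.16), *Podn* (1.27) and *Gm54215* (1.29). All 5 were higher with AAV-TuD, with log2 fold changes from 1.01 in *Gm17167* to 1.21 in *Ttyh2*. Since the distance includes the difference between the groups, it finds genes that rose by a like amount, and these fold changes are given as a description.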

How the data were processed

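Liver RNA of 11 mice was examined, 5 AAV-NC and 6 AAV-TuD, grouped by the sample titles. Libraries were made from 500 ng RNA with the QuantSeq 3′ kit. The authors used BBDuk for trimming and STAR 2.5.3a for alignment to GRCm38, counted them per gene with Rsubread and deposited these counts without normalization. The annotation is not given in the sources used here. STAR and its version are taken from the submitters' processing notes.

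A gene was tested where its count exceeded 10 in 5 or more livers, with edgeR 4.0.16 in R 4.3.3 (quasi-likelihood test, TMM, Benjamini-Hochberg adjustment), with no covariate. Intervals are 95% intervals of that model. The test was checked on simulated counts. Log2 CPM used a prior count of 2, and ratios a pseudocount of 0.5. Of 6 ratios chosen, 3 could be computed, and p values were adjusted over these. Each liver was taken as a separate animal, and no sequencing batch is named in the labels.

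The members, lists, ratios and cell type markers were chosen with earlier results of these data known. Members were all named. In each other list, genes with an adjusted p under 0.05 were named, up to the 5 with the smallest p, and the 5 genes nearest in pattern to the member with the smallest p. Alternatives were DESeq2 1.42.0, its size factors, library size alone, upper-quartile factors, no filter, the edgeR filter, limma-voom (limma 3.58.1), removal of *Mup* genes, a log2 fold change of at least 1, each liver left out, and, added after the data were seen, removal of the 3 livers with most *Mup* reads. Of 13334 tested identifiers, 13323 were in GENCODE M21, from which positions and 3′ UTRs were taken.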

Additional observations from a re-analysis of the deposited data

How the results depend on the processing

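The count of members higher with AAV-TuD was 2, between 1 and 2 when a liver was left out, and 1 where the log2 fold change also had to reach 1, when *Pparg* was left. With library size alone, 11 of the other listed genes were higher and 0 were lower (edgeR), against 7 and 7 with TMM, and all log2 fold changes moved up with the median of all genes (0.23), so that those of *Plin2* and *Plin5* were 0.24 and 0.27. With TMM and a log2 fold change of at least 1, 6 of the other listed genes were higher and 0 lower in edgeR, since all 7 lower genes had smaller changes. The difference in the log2 ratio of *Plin2* to *Plin5* changed sign without AAV-TuD liver 3 (0.0107), AAV-NC liver 8 (0.00122) or AAV-TuD liver 9 (0.0408), within a range from -0.132 to 0.0408 over the fits that left out a liver. No paired analysis was possible because no replicate number is shared by the 2 groups. Over all genes, DESeq2 called 1811 and edgeR 1543. *Pparg* has at most 39 reads in a liver, so its fold change carries counting error.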
